A study of Homo sapiens with 22 samples.

Results

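Solute carriers are the membrane proteins that move amino acids, sugars, ions, metals, vitamins and metabolites across the plasma membrane and the membranes of organelles. They were taken here as the protein-coding genes whose symbol is SLC, a family number, the letter A and a member number, each followed through its protein-coding transcript with the highest mean count. Of 340 such genes, 169 reached a mean of at least 1 CPM (counts scaled to a common library total) over the libraries of 0-10 h and are described below, and the other 171 lay under that level. The 169 members came from 44 family numbers and held 0.188% of all counts. Just inside the limit were SLC44A3 with a mean of 1.06 CPM, SLC66A3 with 1.10 CPM and SLC25A43 with 1.11 CPM, and just outside it were SLC4A4 with 0.997 CPM, SLC5A5 with 0.905 CPM and SLC9A9 with 0.892 CPM. The symbols SLC2A4RG, SLC4A1AP and SLC7A6OS fit the pattern but are named after a carrier without being one, and carriers with other symbols, such as SLC35B or SLCO genes, were not members.

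The data were BRIC-Seq libraries from HEK293T cells, a human embryonic kidney line, that expressed a control short hairpin RNA (shControl) or hairpin RNA against ZNF598 (shZNF598), a ubiquitin ligase that recognises collided ribosomes. All cells were fed 150 μM bromouridine (BrU) for 24 h, so that new transcripts took up the label, and were then chased without it. RNA pulled down with an anti-BrdU antibody was sequenced at 0, 2, 4, 6 and 10 h of chase with 2 libraries per shRNA and time, and at 24 h with 1 library per shRNA. The study asked whether loss of ZNF598 changes how fast mRNAs decay. How many hairpins were pooled, and whether the cells were clones, is not given in the sources used here, and nothing says that the 2 libraries of a group came from separate cultures, so the p-values measure the spread between these libraries only.

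A solute carrier carries its substrate down a gradient or couples it to the flow of another ion, whereas ABC transporters and ion pumps spend ATP. Carriers of amino acids and glucose set how fast a growing cell can build protein and make energy, and the SLC25 family links the mitochondrial matrix with the cytosol. Amounts of several carriers are adjusted through their mRNA, for example of SLC30A1 by zinc and of SLC38A2 by amino acid shortage.

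Levels are CPM after TMM scaling of the libraries, and changes are log2 values of shZNF598 over shControl from edgeR's quasi-likelihood test, with the Benjamini-Hochberg adjusted p over all 79513 transcripts tested. TMM sets the bulk of every library to one level. A slope of 0 log2 per h over the chase therefore means that a transcript was lost as fast as the bulk, a negative slope that it was lost faster, and a positive slope that it was lost more slowly. A lower level can come from fewer cells that make the RNA or from less RNA per cell, which bulk libraries cannot tell apart.

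Total counts were 52352359 to 96963584 in the 20 libraries of 0-10 h, a read being counted in every isoform that it overlapped, and a member had a median of 376 counts per library. ZNF598 itself had 4.05 to 8.55 CPM in the shControl libraries and 0.419 to 1.07 CPM in the shZNF598 libraries (mean log2 change -3.05, SE 0.09, adjusted p = 1.17e-18). Of the fixed markers of this line, LIN28B had a median of 30.6 CPM, INA 13.2 CPM, NEFL 6.96 CPM and NEFM 1.16 CPM, while PAX2 was near 0 with 0.039 CPM. Of the markers of other cell types, PTPRC, ALB, KRT5 and HBB had a median of 0 CPM, and COL1A1 and COL3A1 had 1.01 and 0.438 CPM. The 2 shControl libraries of 0 h differed most, with a Pearson r across transcripts of 0.977 against 0.989 or more in every other group.

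At the end of labelling the most abundant carriers per kilobase of transcript were SLC25A5 with 58.6 CPM per kb and SLC16A1 with 31.9 CPM per kb, both in shControl. SLC25A5 exchanges ADP for ATP across the inner mitochondrial membrane, and SLC16A1 (MCT1) moves lactate and pyruvate. They were followed by SLC25A11, the oxoglutarate carrier, with 26.7 CPM per kb, SLC25A39, which carries glutathione into mitochondria, with 18.3 CPM per kb, and SLC3A2, the heavy chain that takes several amino acid carriers to the cell surface, with 15.5 CPM per kb. The next were SLC25A6, another ADP/ATP carrier, with 14.3 CPM per kb, the zinc importer SLC39A1 with 12.5 CPM per kb, the phosphate importer SLC20A1 with 12.1 CPM per kb, the sugar carrier SLC50A1 with 11.6 CPM per kb and the mitochondrial citrate carrier SLC25A1 with 11.5 CPM per kb. Of these 10 transcripts, 5 belonged to the mitochondrial family. Members had a median of 5 tested isoforms and up to 23. Reads were counted in every isoform that they overlapped, so the isoform with the highest count can be a long one. Its length then lowers the level per kb. The mitochondrial phosphate carrier SLC25A3, for example, was followed through a transcript of 6087 nt, of which 1086 nt are coding. The order per kb thus depends on the isoform taken, and other isoforms were not tried. In the shControl libraries of 0 h SLC25A5 had 55.5 and 61.7 CPM per kb, above every other member, while SLC16A1 with 32.5 and 31.3 and SLC25A11 with 21.5 and 31.97 CPM per kb overlapped. SLC25A39 lay below SLC25A11 with 15.6 and 20.95 CPM per kb, and from there on each member overlapped with the next. For SLC39A1, 71.8% of the exon bases are shared with another annotated gene on the same strand, so its reads cannot be assigned to it alone. SLC7A11, the cystine carrier, stayed under the limit and was not a member.

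Carrier transcripts were lost at very different rates in shControl. Over 0-10 h, 98 of the 169 members were lost faster than the bulk and 36 more slowly, with the slope called in 79.3% of members against 74.4% of all transcripts tested. The negative calls made up 58.0% of members, 40.8% of all transcripts and 52.5% of the 10731 coding genes taken with 1 transcript each, with 21.3%, 33.5% and 25.4% for the positive calls. The median slope was -0.067 log2 per h among members, -0.057 among coding genes and -0.018 among all transcripts. The members ranged from -0.37 to 0.22 log2 per h.

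The transcript lost fastest was SLC16A9, a member of the monocarboxylate family. Its shControl libraries had 4.32 and 4.78 CPM at 0 h, 4.09 and 4.32 CPM at 2 h, 2.37 and 2.64 CPM at 4 h, 1.20 and 1.20 CPM at 6 h and 0.285 and 0.486 CPM at 10 h. The level held for 2 h and then fell in every later pair of libraries, with a slope of -0.37 log2 per h (SE 0.04, adjusted p = 2.41e-08). SLC31A2, a low-affinity copper carrier, had a slope of -0.36 (SE 0.04), but 91.8% of its exon bases lie opposite exons of FKBP15 on the other strand, and the strand setting of the counting is not given in the sources used here.

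SLC30A1, the exporter that takes zinc out of the cell, was lost mostly within the first 4 h (GRCh38, chromosome 1, 211571568 to 211579161, minus strand). It had 11.8 and 8.58 CPM at 0 h, 4.90 and 5.46 CPM at 2 h and 1.59 and 1.55 CPM at 4 h in shControl, and then 1.14 and 1.10 CPM at 6 h and 1.37 and 1.20 CPM at 10 h. The straight-line slope of -0.33 log2 per h (SE 0.06, adjusted p = 3.35e-05) thus averages a steep early loss and a flat end. The remaining 3 of the 6 steepest members were SLC16A14, an orphan of the monocarboxylate family, with -0.31 (SE 0.03), the glucose importer SLC2A3 (GLUT3) with -0.30 (SE 0.02) and SLC45A3, a sugar carrier of the plasma membrane, with -0.26 (SE 0.03). SLC38A2, the neutral amino acid importer that cells raise during amino acid shortage, had 45.6 and 38.97 CPM at 0 h and 8.13 and 7.05 CPM at 6 h and a slope of -0.23 (SE 0.04, adjusted p = 3.6e-05).

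At the other end, SLC22A17, known as a receptor for the siderophore-binding protein lipocalin 2, had 2.80 and 3.13 CPM at 0 h, 4.06 and 4.07 CPM at 4 h and 12.5 and 12.2 CPM at 10 h in shControl. Its share of the labelled RNA was 4.17 times as high at 10 h as at 0 h, with a slope of 0.22 (SE 0.02, adjusted p = 5.16e-10). SLC25A39 went from 25.1 and 33.7 CPM to 93.2 and 87.5 CPM with a slope of 0.17 (SE 0.02). The slope was 0.16 for SLC38A6, SLC7A3, SLC16A4 and SLC30A9, with SE of 0.01 to 0.02. SLC7A3 brings cationic amino acids into the cell and SLC30A9 takes zinc out of mitochondria. Within the monocarboxylate family, SLC16A9 and SLC16A14 therefore stood among the 6 most negative members and SLC16A4 among the 6 most positive, with SLC16A1 between them at -0.15 (SE 0.03).

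Grouped by substrate, none of the 12 carriers of the sugar families was lost more slowly than the bulk and 9 were lost faster, with a median slope of -0.12 log2 per h. Among the 5 phosphate and the 5 nucleotide sugar carriers, 4 and 3 were lost faster and 0 and 0 more slowly. The 26 amino acid carriers had 16 lost faster and 4 more slowly, with a median of -0.083, and the 16 zinc carriers had 8 and 3, with a median of -0.057. The 38 mitochondrial carriers were spread over both sides, 22 lost faster and 12 more slowly, with a median of -0.068. The 20 carriers of sodium, protons, chloride and bicarbonate were split nearly evenly, 7 lost faster and 6 more slowly, around a median of -0.0013. The anion exchanger SLC4A2 was the slowest of these with a slope of 0.13 and the sulfate carrier SLC26A2 the fastest with -0.19. Among the smaller lists, the vitamin, folate, choline and heme carriers had 7 of 12 lost faster and 2 more slowly, the organic ion, bile acid, peptide and vesicular carriers 6 of 8 and 2, the monocarboxylate and di- or tricarboxylate carriers 4 of 7 and 2, the other metal carriers 4 of 6 and 1, the fatty acid and acetyl-CoA carriers 2 of 5 and 2, the nucleoside carriers 2 of 3 and 0, and the lysosomal PQ-loop carriers 2 of 3 and 1. Of the 3 genes named after a carrier, 2 were lost faster and 1 more slowly.

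**Figure D1:**
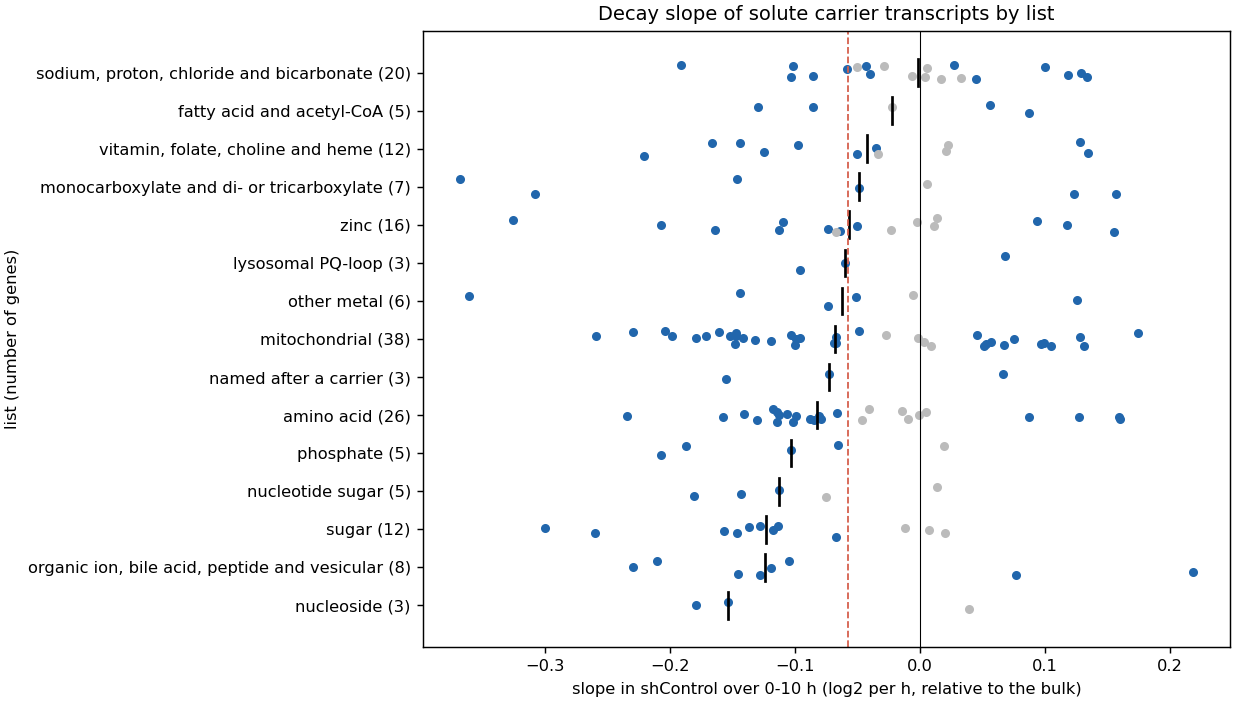
Decay slope in shControl over 0-10 h for each of the 169 members (x axis, log2 per h relative to the bulk), by list (y axis, number of genes in brackets). Blue points have an adjusted p below 0.05 and grey points do not, black bars are list medians, the solid line marks the bulk at 0 and the dashed line the median of coding genes at -0.057. The sugar list has its median at -0.12 and no blue point right of 0, and the sodium, proton, chloride and bicarbonate list has its median near 0.

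Short AU-rich elements in the 3′ UTR, of which TATTTAT is a core form, are known as sites for proteins that speed mRNA decay. To show what such a stretch looks like in the fast members, 30 bases of 3′ UTR around a TATTTAT are printed for the 6 fastest members that hold one and whose transcript version matched the annotation, in the sense direction, from the GENCODE 44 transcripts on GRCh38, with TATTTAT in capitals.
SLC31A2 (chr9:113163822-113163851, plus strand): tcaatacttaatattctcTATTTATtactt
SLC30A1 (chr1:211573146-211573175, minus strand): tgagttttagcagagaatTATTTATttctt
SLC16A14 (chr2:230035059-230035088, minus strand): tataaagggttaattgtaTATTTATatcat
SLC2A3 (chr12:7920933-7920962, minus strand): gcaaattaacttgagtttTATTTATtttat
SLC45A3 (chr1:205658556-205658585, minus strand): gcatttaaatatttaactTATTTATttaac
SLC38A2 (chr12:46358790-46358819, minus strand): cagttacaactgtaatgtTATTTATagaac

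SLC30A1 holds 17 copies of the shorter pentamer ATTTA in a 3′ UTR of 3820 nt, and SLC38A2 holds 11 in 2923 nt, whereas SLC25A39 and SLC7A3, both lost slowly, hold 0 in 376 and 234 nt. SLC30A9, lost slowly too, holds 15 in 4335 nt, with TATTTAT present, so the motif did not mark the fast members alone. Over the 143 members whose transcript version matched the annotation and has a 3′ UTR, TATTTAT was found in 57.3% of the 82 lost faster, in 26.7% of the 30 lost more slowly and in 32.3% of the 31 without a called slope. Over all 8840 coding genes treated alike it was found in 44.7%, 22.6% and 36.7% of these groups, and in 37.5% of all. The 3′ UTRs differed in length as well, with medians of 2148, 1061 and 988 nt in the 3 groups of members and 1889, 663 and 1450 nt in those of coding genes, and a longer one holds any motif more often. The Spearman correlation between 3′ UTR length and slope was -0.20 across the 143 members and -0.30 across the 8840 genes, as a description across transcripts that share the same libraries. The length of the coding sequence gave 0.18, ATTTA per kb -0.10 and the share of G and C at the third codon position 0.046 across the members. Pearson's r across the members was -0.067 for the length of the 3′ UTR and 0.23 for that of the coding sequence, so the order of the 2 lengths depends on the measure. These shares describe a choice made by the slope and carry no test.

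In shZNF598 the carriers kept nearly the same order of loss. Of the 169 members 89 were lost faster than the bulk and 38 more slowly, 75.1% with a called slope against 71.2% of all transcripts (38.5% negative and 32.7% positive). The slopes in the 2 shRNAs, which come from different libraries, had a Pearson r of 0.972 across members and 0.975 across coding genes, and 156 of the 169 members, or 92.3%, had the same sign in both, against 94.4% of coding genes. The median difference between the slopes, without regard to sign, was 0.016 log2 per h, under the median standard error of a single difference of 0.028.

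The difference in slope was the measure closest to the question of the study, and no member passed its test. With edgeR 0 of 169 were called, against 0.116% of all transcripts, which were 92 of 79513, 2 positive and 90 negative. At an unadjusted p below 0.05 there were 7 members, 4 with a higher and 3 with a lower slope in shZNF598, and 4397 transcripts in all. DESeq2's Wald test, which gave an adjusted p for 68 members, called SLC25A4 and SLC39A6, both negative. Over all transcripts that test called 23 positive and 556 negative differences. The median difference was 0.0084 log2 per h among members, 0.0038 among coding genes and 0.0008 among all transcripts, and 62.1% of members against 51.2% of all transcripts had a positive difference.

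SLC39A6, a zinc importer of the plasma membrane (chromosome 18, 36108531 to 36129340, minus strand), had the most negative difference. Its shControl libraries had 35.1 and 31.1 CPM at 0 h, 45.6 and 50.01 CPM at 4 h and 59.2 and 67.0 CPM at 10 h, and its shZNF598 libraries had 26.1 and 27.3, 30.9 and 30.2, and 27.996 and 23.7 CPM at these times. The share of labelled RNA rose in shControl, with a slope of 0.094 (SE 0.02, adjusted p = 6.98e-06), and stayed level in shZNF598, with a slope of -0.005 (SE 0.02, adjusted p = 0.782). The difference was -0.099 log2 per h (SE 0.02, adjusted p = 0.0759), and the libraries of the 2 shRNAs overlapped at no time. SLC25A4, the ADP/ATP carrier of heart and muscle (chromosome 4, 185143266 to 185150382, plus strand), had 13.9 and 14.995 CPM at 0 h and 18.7 and 21.4 CPM at 10 h in shControl, and 13.2 and 13.7 CPM and 11.8 and 10.2 CPM in shZNF598. It rose against the bulk with shControl (slope 0.046, SE 0.01, adjusted p = 0.00094) and fell with shZNF598 (slope -0.033, SE 0.01, adjusted p = 0.0132). The difference was -0.079 (SE 0.02, adjusted p = 0.0543). Both missed the threshold with edgeR and TMM. They passed it with DESeq2's size factors (adjusted p of 0.0389 for SLC25A4 and 0.0396 for SLC39A6), with a mean CPM of at least 5 and in DESeq2's own test. Over all transcripts, too, nearly all called differences were negative, 118 against 4 positive with the size factors and 150 against 2 with that filter. Each gene was fitted under 33 settings, the one reported here included, and passed in none beyond those named in this paragraph. The shControl 10 h library of replicate 1 bears on both calls: without it 2 members passed, SLC25A4 with -0.088 and SLC39A6 with -0.11. Without the shZNF598 6 h library of replicate 1, SLC39A6 alone passed, with -0.10. The third with a small p was SLC36A4, an amino acid carrier, with a difference of -0.066 (SE 0.03, unadjusted p = 0.019, adjusted p = 0.722).

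Among the members with the smallest p on the positive side were SLC38A3, a glutamine carrier, with 0.074 (SE 0.03, adjusted p = 0.564) and SLC12A9, an orphan of the cation-chloride family, with 0.056 (SE 0.02, adjusted p = 0.838). For SLC38A3 the 10 h libraries gave 1.11 and 0.912 CPM for shControl and 1.37 and 1.87 CPM for shZNF598, and the 0 h libraries had 1.89 and 1.72 CPM and 1.64 and 1.91 CPM. For SLC7A1, the main importer of arginine, the slopes differed by 0.047 (SE 0.02, adjusted p = 0.859) and for the glutamine importer SLC1A5 by 0.041 (SE 0.02, adjusted p = 0.91). None of these passed the test.

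**Figure D2:**
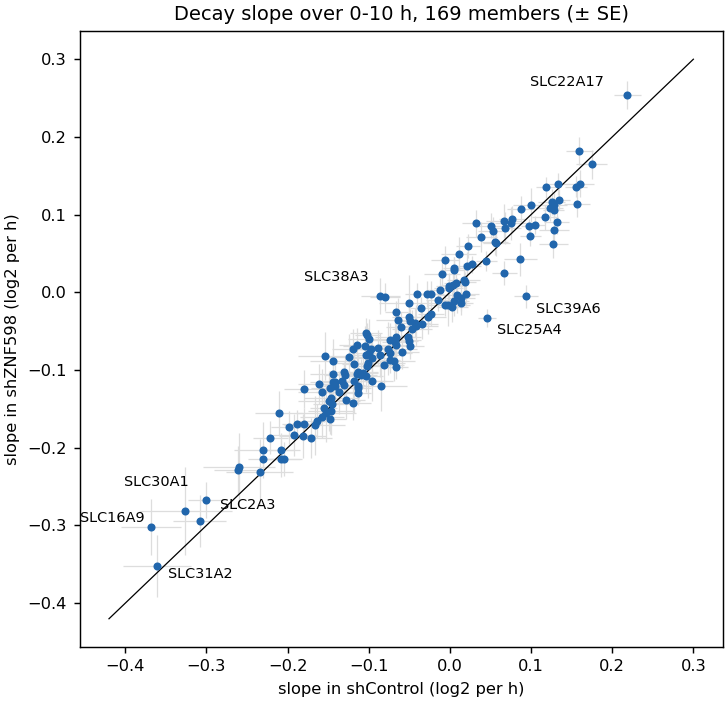
Decay slope over 0-10 h in shControl (x axis) and shZNF598 (y axis), both in log2 per h relative to the bulk, for the 169 members, with bars of 1 standard error and the line of equal slopes. The points follow the line (Pearson r 0.972), and SLC39A6 and SLC25A4 lie under it by 0.099 and 0.079 log2 per h.

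Before the chase began, at 0 h, 3 of the 169 members were lower in shZNF598 and 0 higher, 1.78% of members against 0.407% of all transcripts (0.335% lower and 0.0729% higher), and at an unadjusted p below 0.05 there were 15 lower and 5 higher members, 20 of 169, and 8069 of 79513 transcripts. SLC45A3 had 3.64 and 4.34 CPM in the shControl libraries and 2.20 and 2.23 CPM in the shZNF598 libraries, which did not overlap (log2 change -0.85, SE 0.16, adjusted p = 0.0127). SLC2A3 had 5.30 and 5.06 CPM against 2.86 and 3.17 CPM (-0.78, SE 0.15, adjusted p = 0.0135). SLC37A4, which brings glucose 6-phosphate into the endoplasmic reticulum, had 8.60 and 10.3 CPM against 6.63 and 6.02 CPM (-0.58, SE 0.12, adjusted p = 0.0244). On the higher side the smallest p-values were those of the lysosomal arginine sensor SLC38A9 with 0.32 (SE 0.12, adjusted p = 0.342), SLC37A3 with 0.26 (SE 0.11, adjusted p = 0.386) and the zinc carrier SLC39A9 with 0.25 (SE 0.11, adjusted p = 0.444), which did not pass. Single libraries of 0 h decide these calls: 0 members passed without the shZNF598 library of replicate 1, 0 without that of replicate 2, and 5 without the shControl library of replicate 1, the added ones being the mitochondrial dicarboxylate carrier SLC25A10 and SLC25A11. Without the shControl library of replicate 2 there were 4, and SLC37A4 was not among them, nor was it when each gene was fitted with 1 transcript (adjusted p = 0.0665). From the 4 libraries of 0 h alone 0 members were called, with 14 at an unadjusted p below 0.05. Over all transcripts these 4 libraries gave 0 higher and 11 lower calls. Fewer of all transcripts, too, were called without either shZNF598 library of 0 h, and more without either shControl one. These moves are thus not particular to the members.

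The 3 members called at 0 h were called at 2, 4 and 6 h as well. At 2 h 4 members were lower and 0 higher (0.606% and 0.14% of all transcripts), SLC2A3 by -1.30, SLC45A3 by -1.20, SLC37A4 by -0.63 and SLC39A6 by -0.49. At 4 h 6 were lower and 1 higher (1.17% and 0.233%), with SLC45A3 at -1.52, SLC2A3 at -1.22 and SLC16A9 at 0.64. At 6 h 6 were lower and 1 higher (1.57% and 0.722%), now with SLC25A4 at -0.54, SLC25A11 at -0.53 and SLC48A1, a heme carrier of lysosomes and endosomes, at 0.82. At 10 h 6 were lower and 0 higher (2.43% and 0.799%), led by SLC39A6 at -1.28 and SLC25A4 at -0.86, while SLC45A3 with -0.44 and SLC2A3 with -0.51 no longer passed. The members called at each time made up 1.78 to 4.14% of the 169.

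The mean over the 5 chase times draws on all 20 libraries. Of the 169 members 23 were higher and 33 lower in shZNF598, 33.1% of members against 22.4% of all transcripts tested (12.3% higher and 10.1% lower). Among the 10731 coding genes 15.6% were higher and 12.1% lower, so the members held a similar share of higher calls (13.6%) and more lower ones (19.5%). Most changes were small: 6 members were lower by at least 0.5 log2 and 0 higher by as much, against 1.2% and 0.236% of all transcripts. At all 5 times both shZNF598 libraries lay under both shControl libraries for 11 members (2.44% of all transcripts) and above them for 5 (2.05%). The median change was 0.0041 log2, against 0.020 over all transcripts. The mean level was fitted under 28 settings, the one reported here included, and how many of them called a member is given below where fewer than 27 did.

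The 6 lower members with the largest change included both sugar carriers of the 0 h comparison. SLC45A3 (chromosome 1, 205657851 to 205680509, minus strand) had 3.11 and 3.61 CPM at 2 h, 2.01 and 2.40 CPM at 4 h, 1.31 and 1.08 CPM at 6 h and 0.713 and 0.790 CPM at 10 h in shControl. Its shZNF598 libraries had 1.43 and 1.49 CPM, 0.786 and 0.747 CPM, 0.405 and 0.593 CPM, and 0.479 and 0.648 CPM at these times. The mean change was -1.05 (SE 0.09, adjusted p = 6.55e-09), a level 0.483 times that of shControl, with the gap narrowest at 10 h. SLC2A3 (chromosome 12, 7919230 to 7936187, minus strand) had a mean change of -0.93 (SE 0.09, adjusted p = 1.99e-08), with 3.95 and 4.24 CPM against 1.56 and 1.77 CPM at 2 h and 1.31 and 1.45 CPM against 0.654 and 0.828 CPM at 6 h. The difference in slope between the shRNAs did not pass for either, with 0.032 (SE 0.04) for SLC45A3 and 0.034 (SE 0.03) for SLC2A3. SLC2A1 (GLUT1), a glucose importer of the same family, went the opposite way: it had 9.36 and 11.3 CPM at 0 h and 5.14 and 4.74 CPM at 10 h in shControl against 12.2 and 11.9 CPM and 6.37 and 7.16 CPM in shZNF598, above it at all 5 times (0.28, SE 0.05, adjusted p = 0.000466).

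SLC39A6 had a change of -0.73 (SE 0.05, adjusted p = 1.69e-10), and SLC37A4 one of -0.64 (SE 0.05, adjusted p = 3.14e-09) with a gap of much the same size at every time, 8.80 and 9.22 CPM against 5.55 and 6.09 CPM at 2 h and 10.6 and 10.5 CPM against 6.26 and 6.98 CPM at 10 h. SLC7A3 changed by -0.59 (SE 0.08, adjusted p = 7.61e-06) and SLC7A8, a carrier of neutral amino acids, by -0.57 (SE 0.09, adjusted p = 3.75e-05). At each single time both shZNF598 libraries lay under both shControl libraries for either gene, but of these comparisons only that of SLC7A3 at 4 h passed. SLC7A3 rose against the bulk in both shRNAs, from 1.69 and 1.71 CPM to 4.85 and 5.27 CPM in shControl and from 0.936 and 1.15 CPM to 3.25 and 3.59 CPM in shZNF598, and SLC7A8 had 2.99 and 1.90 CPM at 0 h and 2.71 and 2.29 CPM at 10 h in shControl against 1.86 and 1.70 CPM and 1.54 and 1.47 CPM in shZNF598.

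The 6 higher members with the largest change were SLC16A9 with 0.48 (SE 0.08, adjusted p = 0.000131), SLC48A1 with 0.35 (SE 0.09), the mitochondrial carrier of branched-chain amino acids SLC25A44 with 0.32 (SE 0.06), the lysosomal SLC49A4 with 0.31 (SE 0.06), SLC25A38, which brings glycine into mitochondria for heme synthesis, with 0.29 (SE 0.06) and the Golgi zinc carrier SLC30A7 with 0.28 (SE 0.06). SLC16A9 overlapped at 0 h, with 4.32 and 4.78 CPM in shControl and 4.33 and 4.86 CPM in shZNF598, and its shZNF598 libraries lay above at every later time, with 4.13 and 3.68 CPM at 4 h and 0.667 and 0.648 CPM at 10 h. SLC25A44 and SLC25A38 were above at all 5 times, SLC25A38 with 16.1 and 20.7 CPM against 22.7 and 21.6 CPM at 0 h and 5.96 and 6.36 CPM against 8.23 and 8.02 CPM at 6 h.

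**Figure D3:**
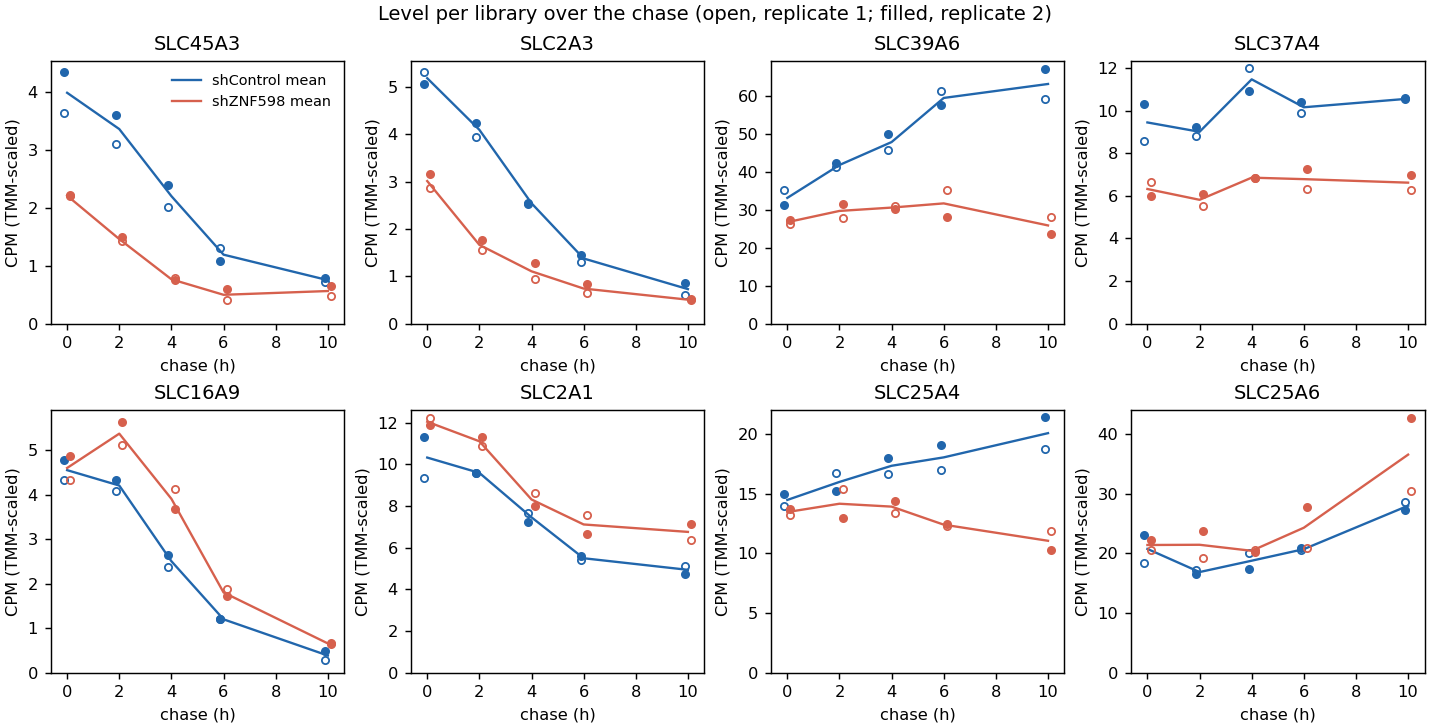
Level of 8 members over the chase (x axis, h) in CPM after TMM scaling (y axis, from 0), with open points for replicate 1, filled points for replicate 2 and lines for the mean of the 2 libraries, shControl in blue and shZNF598 in red. SLC45A3, SLC2A3, SLC39A6 and SLC37A4 are lower in shZNF598 at every time, SLC2A1 is higher at every time, and at 10 h SLC25A4 is lower and SLC25A6 higher in both shZNF598 libraries.

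By role, the sugar families had 2 of 12 members higher and 6 lower, with a median of -0.19, the lowest of the lists with more than 5 members. The 6 lower were SLC45A3, SLC2A3, SLC2A12 with -0.35 (called in 23 of 28 settings), SLC2A6 with -0.24 (19 of 28), SLC50A1 with -0.19 and SLC5A6 with -0.19, which sits in a sugar family by its number but carries vitamins. The 2 higher were SLC2A1 and SLC5A3, the importer of myo-inositol, with 0.22. For SLC2A12 51.2% of the exon bases lie opposite another gene. The 26 amino acid carriers had 3 higher and 7 lower, with a median of -0.070. Lower were SLC7A3, SLC7A8, the glutamate carriers SLC1A1 with -0.39 and SLC1A3 with -0.35, SLC36A4 with -0.29, SLC7A2 with -0.27 and SLC7A5 (LAT1) with -0.23, and higher were SLC38A9 with 0.24, SLC7A1 with 0.18 (called in 14 of 28 settings) and SLC43A2 with 0.18 (21 of 28). SLC3A2, the partner chain of SLC7A5, did not pass (0.065, SE 0.06, adjusted p = 0.429), nor did SLC1A5 (0.084, adjusted p = 0.325) or SLC38A2 (0.15, adjusted p = 0.0546). Of the 8 members among the known targets of ATF4, the transcription factor of the amino acid response, 1 was higher and 2 lower.

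The 38 mitochondrial carriers had 4 higher and 7 lower, with a median of -0.0005. Higher were SLC25A44, SLC25A38, SLC25A33 with 0.27 and SLC25A6, and lower were SLC25A11 with -0.44, SLC25A10 with -0.43, SLC25A4 with -0.40, SLC25A12 with -0.28, SLC25A21 with -0.27 (called in 13 of 28 settings), SLC25A23 with -0.21 and SLC25A13 with -0.14 (23 of 28), among them carriers of oxoglutarate, dicarboxylates and aspartate. The 3 ADP/ATP carriers differed from each other: SLC25A4 was lower (-0.40, SE 0.05, adjusted p = 4.52e-06), SLC25A6 higher (0.23, SE 0.07, adjusted p = 0.0159) and SLC25A5, the most abundant, did not pass (0.11, SE 0.05, adjusted p = 0.095). SLC25A6 had 28.7 and 27.3 CPM at 10 h in shControl and 30.4 and 42.7 CPM in shZNF598, so its shZNF598 libraries lay far apart there. These paralogues are alike in sequence, and reads that matched several loci were not counted. The mitochondrial phosphate carrier SLC25A3 did not pass (-0.008, SE 0.04, adjusted p = 0.922). For SLC25A10 62.9% and for SLC25A21 45.4% of the exon bases are shared with or lie opposite another gene.

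The 16 zinc carriers had 3 higher and 4 lower. The 4 lower members were importers of the SLC39 family, SLC39A6, SLC39A11 with -0.38, SLC39A1 with -0.23 and SLC39A10 with -0.18, and the 3 higher ones were SLC30 carriers, which take zinc out of the cytosol, SLC30A7, SLC30A6 with 0.19 and SLC30A5 with 0.14. SLC30A6 was called in 21 of 28 settings and SLC30A5 in 15, so of the 3 higher calls only that of SLC30A7 held in all. Of the 4 lower members, SLC39A1 shares 71.8% of its exon bases with another gene on the same strand, so its reads cannot be assigned to it alone. The other 9 zinc carriers did not pass, among them SLC30A1 with 0.044 (adjusted p = 0.724). The split by family was noted after the values were seen. The 20 carriers of sodium, protons, chloride and bicarbonate had 2 higher (SLC24A1 with 0.25, called in 22 of 28 settings, and SLC8A1 with 0.16, called in 10) and 1 lower (SLC4A8 with -0.45), and SLC12A2 (NKCC1) did not pass (-0.075, adjusted p = 0.395). The 12 vitamin, folate, choline and heme carriers had 3 higher, SLC48A1, SLC49A4 and the folate carrier SLC19A1 with 0.21, and 2 lower, the vitamin C carrier SLC23A2 with -0.24 and SLC46A1 with -0.18 (called in 20 of 28 settings), whose exon bases lie to 65.7% opposite another gene. The 5 phosphate carriers had 2 higher, SLC20A2 with 0.24 and SLC37A3 with 0.20, and 1 lower, SLC37A4. Of the 6 other metal carriers the iron importer SLC11A2 with 0.20 and the magnesium carrier SLC41A1 with 0.17 were higher. The 7 members of the monocarboxylate list had 1 higher, SLC16A9, and 2 lower, among them SLC16A4 with -0.40. Lower in the organic ion list were 2 of 8, SLC22A23 with -0.46 and SLC22A17 with -0.31, and in the fatty acid list 1 of 5, SLC27A3 with -0.30. For SLC22A23 20.9% and for SLC19A1 23.2% of the exon bases lie opposite another gene. No member of the nucleoside, nucleotide sugar and lysosomal PQ-loop lists passed, and of the genes named after a carrier 1 was higher.

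**Figure D4:**
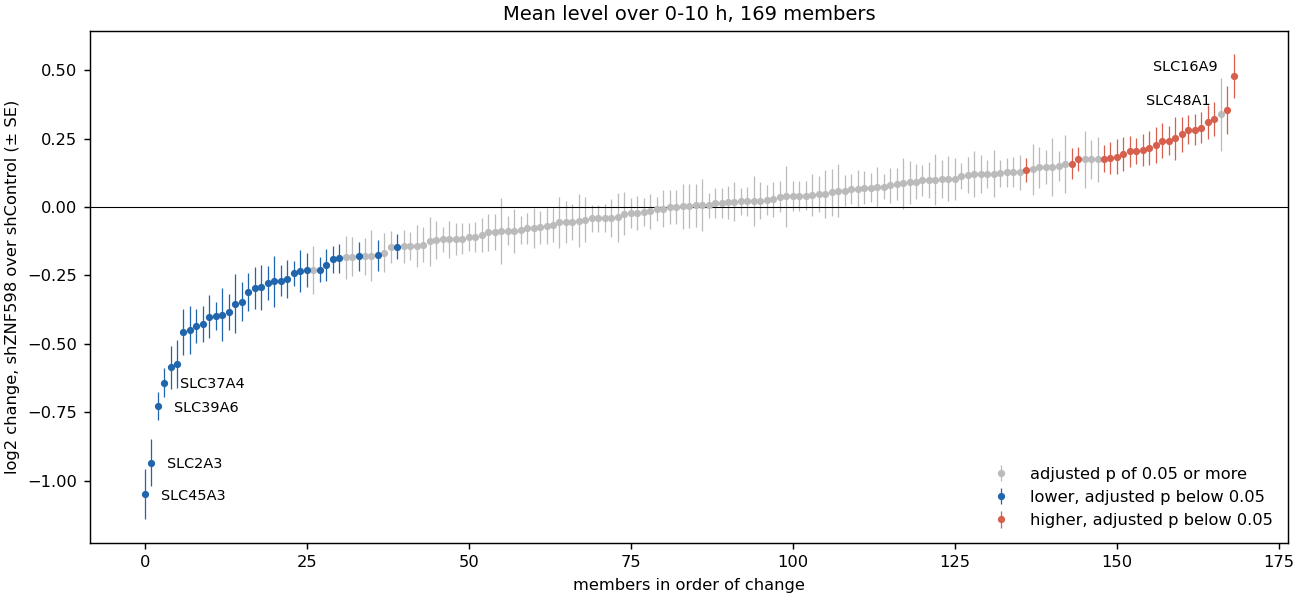
Mean log2 change of shZNF598 over shControl over 0-10 h (y axis) for the 169 members in order of change (x axis), with bars of 1 standard error. Red points are higher and blue points lower with an adjusted p below 0.05, and grey points did not pass. The blue end reaches -1.05 (SLC45A3) and the red end 0.48 (SLC16A9).

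Apparent half-lives followed the rule of the study, without its spike-in factor, so the hours are relative to the bulk and are not absolute half-lives. Of the 169 members 41 had a reliable one in both shRNAs. The median over these was 5.38 h with shControl and 5.24 h with shZNF598, against 4.84 and 5.05 h over 14990 transcripts, and the median log2 ratio of shZNF598 over shControl was 0.076 against 0.044. The order of the member medians is not stable. It was reversed in a fixed window of 0-10 h (5.46 and 6.23 h), from replicate 1 alone (5.23 and 5.72 h) and from replicate 2 alone (4.79 and 4.97 h). With a minimum R2 of 0.8, which kept 65 members, the order was the same, with 6.29 and 5.94 h. The half-life was longer in shZNF598 for 24 of the 41. The shortest was that of SLC30A1 with 1.503 h with shControl and 1.82 h with shZNF598 (windows to 4 and 6 h), followed by SLC25A44 with 2.21 and 2.42 h, SLC31A2 with 2.26 and 2.07 h and SLC38A2 with 2.32 and 2.57 h. SLC2A3 had 3.50 and 3.09 h and SLC45A3 4.08 and 2.80 h, where the best window ended at 10 h in shControl and at 6 h in shZNF598. SLC7A5 gave 9.90 and 22.6 h, again from windows of different length (10 and 4 h), while its slopes of -0.115 and -0.106 over the common window differed by 0.009 (SE 0.02). A transcript lost more slowly than the bulk over its fitted window has no half-life on this scale, and that window can differ from 0-10 h.

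At 24 h, with 1 library per shRNA and no replicate check, members had 7 to 1621 counts in shControl and 13 to 2939 in shZNF598. None differed by 2-fold or more on the log2(CPM + 0.5) scale, against 0.678% of all transcripts higher and 0.533% lower, and the median difference was 0.068 among members and -0.032 among all. SLC39A6 gave 15.4 CPM with shControl and 12.3 CPM with shZNF598, SLC2A3 had 1.14 and 0.688 CPM, and SLC45A3 had 1.14 and 1.03 CPM.

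Other transport proteins were read the same way. Of 41 genes of the SLC type whose symbols the pattern does not take, 7 were higher and 4 lower in mean level, and 23 were lost faster and 11 more slowly than the bulk in shControl, with a median slope of -0.073. Of 21 ABC transporters 2 were higher and 7 lower, among them ABCA7 with -0.36 (SE 0.07, adjusted p = 0.000679) and ABCB6 with -0.34 (SE 0.07, adjusted p = 0.000872), and here 3 were lost faster and 10 more slowly, with a median of 0.021. Of 22 subunits of ion pumps 1 was higher and 3 lower, and 5 were lost faster and 9 more slowly, with a median of 0.015. Among the 10731 coding genes 15.6% were higher and 12.1% lower, and 52.5% were lost faster and 25.4% more slowly. In each of these lists 0 genes had a called difference in slope, as against 15 of all coding genes. Whether the lists differ from the carriers was not tested.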

How the data were processed

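BRIC-Seq libraries of HEK293T cells with shControl or shZNF598 were labelled, chased and sequenced by the authors. Per the methods of the study and the labels, fastp trimmed the reads, those from noncoding RNA were taken out, and the others were aligned with STAR 2.7.0a to hg38 with 1 mismatch and 1 locus allowed, with base calls from CASAVA 1.8. The deposited values are raw read counts per transcript made by the authors with featureCounts, 1 file per library, and all 22 libraries in 12 groups were used. Spike-in counts were not used here. Groups and replicate numbers came from the sample labels.

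Identifiers were named with GENCODE 44 (GRCh38); 92.2% of 227264 matched with version. Counts were tested with edgeR 4.0.16 (limma 3.58.1, R 4.3.3) on the 79513 transcripts whose mean reached 1 CPM, after TMM scaling, with 1 mean per group for levels and shRNA, chase hours and their product for slopes. The standard error is the log2 change over the square root of F, and edgeR keeps p from falling below that of a Poisson fit. Half-lives used DESeq2 1.42.0 with windows of 0-4, 0-6, 0-10 and 0-24 h, R2 above 0.9 and 0 to 24 h. The members and lists were chosen with earlier results of these data known. The genes named were the largest called changes of each comparison (up to 6 per direction, or the 3 smallest p where fewer than 3 passed), the 10 highest levels per kb and 17 well-known carriers, and others are named where a list's calls are given. Some items that this choice names are not reported here. Lists are family numbers. On simulated counts of all 79513 transcripts with 200 changed, 84% of mean changes of 0.5 log2 were recovered with 4 false calls among 172, 59.5% of 0 h changes of 1 log2 with 7 among 126, and 86.5% of slope differences of 0.15 log2 per h with 14 among 187. The simulated counts were independent, with 1 dispersion of 0.02 for every transcript and library and with straight-line slopes. Real libraries differed in spread between groups and isoforms shared reads, so these rates need not hold for them. Alternatives covered the tool, scaling, filter, rows per gene, replicate block, left-out libraries and chase window.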

Additional observations from a re-analysis of the deposited data

Results flagged for a closer look

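For 6 members both shZNF598 libraries lay on one side of both shControl libraries at 0 h and on the other side at 10 h, which is 3.55% of members against 5.08% of all transcripts tested. The difference in slope was the test of this reversal, and none passed it with edgeR. It was 0.056 log2 per h for SLC12A9 (adjusted p = 0.838), 0.048 for the potassium-chloride carrier SLC12A4 (adjusted p = 0.947), -0.041 for the mitochondrial carrier SLC25A24 (adjusted p = 0.973), 0.055 for the nucleoside carrier SLC29A1 and 0.056 for SLC10A7, and -0.014 for SLC7A6OS, the last 3 with an adjusted p of 1. SLC29A1 had a log2 change of -0.14 (SE 0.11) at 0 h and 0.32 (SE 0.13) at 10 h, and SLC25A24 one of 0.031 (SE 0.12) and -0.33 (SE 0.12). For SLC7A6OS 80.5% of the exon bases lie opposite SLC7A6.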

How the results depend on the processing

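Of the counts or levels that answer a comparison, 247 values recomputed under an alternative stayed near the reported one and 24 moved. A count of members was taken as near without being equal, such as 54 without the filter or 59 with the replicate block against 56 in mean level. The level of ZNF598 was judged by its direction and side of the threshold. Of the values of the genes with the largest called changes, 749 kept their direction and side of the threshold. Another 21 lost their call with the same direction, at 0 h or as slopes over 0-4 or 0-24 h. Smaller changes were less stable: 29 members were called for mean level in all 28 settings, while the lowest support among the reported calls was 10 of 28, for SLC8A1. A member under the filter of 5 CPM counts as not called there. The mean level rests on 10 libraries per shRNA and the level at 0 h on 2.

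With a mean CPM of at least 5, which tests 93 members, the counts were 1 for 0 h (1 lower), 21 lower in mean level, 58 lost faster and 16 lost more slowly. Of the 36364 transcripts tested there, 155 were lower and 57 higher at 0 h and 4562 lower in mean level. Of the same transcripts 16136 were lost faster and 13744 more slowly. Called differences in slope went from 0 to 2 with DESeq2, with its size factors and with this filter. Over all transcripts they went from 2 positive and 90 negative to 23 and 556, 4 and 118, and 2 and 150 in these settings. The window of 0-4 h gave 46 lost faster and 21 more slowly, and that of 0-24 h, where each shRNA has 1 library of 24 h, 50 and 5. Calls fell over all 79513 transcripts as well, from 32468 lost faster and 26651 more slowly over 0-10 h. They were 16941 and 10228 over 0-4 h and 12274 and 10695 over 0-24 h. At 0 h the 4 libraries of that time alone gave 0 members called and 0 lower, and 0 higher and 11 lower over all transcripts. Half-lives were reliable for 13 members in a fixed window of 0-10 h and for 65 with a minimum R2 of 0.8, and for 3850 and 23309 of all transcripts. ZNF598 itself fell under the filter of 5 CPM and could not be tested there. The causes of the other moves were not tested. The number of calls over all transcripts also changed with the library left out, so the ranges that follow are not particular to the members. Leaving out 1 library at a time gave 0 to 5 members called at 0 h, all lower, 0 to 2 called for the slope difference, 48 to 64 for the mean level (18 to 28 higher and 29 to 37 lower), and 83 to 100 lost faster and 33 to 36 more slowly.

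Replicate numbers did not consistently pair the samples: over 45 pairs of groups the deviations correlated by -0.327 to 0.475 (median 0.029). In 12 pairs the correlation was over 0.1, the value set beforehand as pairing. Between the groups of the same chase time it was -0.228 to 0.350. With the replicate block 3 members were called at 0 h, 59 in mean level and 0 in slope difference. Further alternatives were chosen after seeing the data: without members whose exons overlap another gene by over 20%, 21 were higher and 27 lower in mean level, and over 2-10 h alone 23 and 34.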
